A study of Mus musculus with 17 samples.

Results

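The genes described here are 42 cell cycle and DNA replication genes, chosen by name as a list of genes that dividing cells are known to use, and followed in the RNA of 3 cell populations sorted from mouse lung tumors. They are 42 of 17556 genes that had a row in at least 1 of the tables. All 42 were listed for TRMs, 41 for tumor cells (no row for Aurkb) and 37 for MDMs (no row for Ccnb1, Plk1, Foxm1, Bub1 and Cdc20), and members without a row were not analysed here. The mice, young adults when infected, were of the tumor model labelled KL, which carries Lkb1fl/fl, or of the same model with Gpx4m/m added (KLG4). Both genotypes received Ad-Cre, an adenovirus that carries Cre recombinase, through the nose, and both received tamoxifen, so both were designed to lose Lkb1 in the infected cells. In KLG4 mice Cre also switched on a tamoxifen-dependent Dre recombinase, driven by a CAG promoter at the Gpx4 locus, which then removed Gpx4 exons in the same cells. The design thus aimed the Gpx4 deletion at tumor cells and not at TRMs or MDMs, whose names are used here as the labels give them. Cells were taken 10 weeks after the virus. Each of the 6 groups held 2 libraries. Those of tumor cells came, as the paper states, from 2 mice per genotype. For TRMs and MDMs no source says whether the 2 libraries came from separate animals, so that p-values there measure only the spread between libraries, which may be technical. The 2 KL libraries of MDMs differed in Xist, as given with the markers, which libraries of a single animal would not.

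A dividing cell copies its DNA once and then separates the copies. In the G1 phase the MCM helicase, a ring of related subunits, is loaded on origins of replication, and cyclin E and E2F start S phase, in which the sliding clamp Pcna and the enzymes of nucleotide supply serve the replication forks. In G2 and mitosis, Cdk1 with cyclins A and B, the Aurora and Polo kinases, the spindle checkpoint and the kinesin motors condense, align and part the chromosomes. The transcripts of the first set peak around the entry into S phase, where E2F factors act, and those of the second set peak in G2 and mitosis, many of them through promoter elements named CHR and CCAAT. In the adult lung, alveolar macrophages renew themselves by division within the tissue.

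The depth of a library, recovered from the tables, was 9.14 to 36.6 M reads. Gpx4 read 56.4 and 61.9 RPKM (reads divided by gene length and by library size) in KLG4 tumor cells against 95.0 and 76.8 in KL, over all its exons, including those that the design leaves in place. It read 53.8 and 57.0 RPKM in KLG4 TRMs against 89.8 and 88.2 in KL, and 93.6 and 97.7 RPKM in KLG4 MDMs against 44.9 and 71.3 in KL. Markers of other cells moved with genotype in tumor cells. All 6 pan-leukocyte genes of a marker list rose there, and their summed level was 152 to 154 RPKM in KLG4 against 17.6 to 21.2 in KL, and 6 of 6 listed neutrophil genes rose, from 179 to 272 RPKM in KL to 2156 to 2255 RPKM in KLG4, while all 8 epithelial genes fell, with a sum of 3634 to 3652 against 6308 to 8482 RPKM. Sums were also higher in KLG4 tumor cells for fibroblast genes (369 in both libraries against 10.6 and 15.7 RPKM), T cell genes (56.5 and 64.9 against 2.14 and 3.42 RPKM) and alveolar macrophage genes (405 and 413 against 73.1 and 87.4 RPKM). TRMs carried alveolar macrophage genes as their defining set, with a sum over 10 genes of 12939 and 12089 RPKM in the KLG4 libraries against 8741 and 8631 in KL. The TRM sums are not rescaled for mitochondrial reads, which took a larger share in KL, as given below. Genes of alveolar type 2 cells summed to 35.9 and 69.4 RPKM in KLG4 TRMs against 171 and 182 in KL, with 2 of 8 called lower. Genes of monocyte-derived macrophages summed to 138 and 171 RPKM in KLG4 TRMs against 80.1 and 65.9 in KL, with 2 of 9 called higher, and neutrophil genes to 115 and 82.0 against 235 and 144 RPKM, with 0 of 6 called. MDMs went partly against their label: 7 neutrophil genes summed to 10668 to 23390 RPKM, S100a9 at 9379 to 21106 RPKM among them, against 526 to 659 RPKM for 10 genes of monocyte-derived macrophages. Xist, transcribed from the inactive X chromosome, separated the TRM genotypes (18.3 and 20.2 RPKM in KLG4, 0.257 and 0.501 in KL) and set apart MDM KL replicate 2 (0.839 RPKM, against 19.4 to 21.8 in the other 3), so sex and genotype cannot be told apart in TRMs. In these bulk libraries, fewer dividing cells and less of a transcript in each dividing cell cannot be told apart.

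The members stood highest in TRMs. For 36 genes listed in all 3 tables, the mean of the 2 KLG4 TRM libraries was the highest of the 6 group means for 32 genes, that of KL tumor cells for 2 (Mcm6 and Kif23), that of KLG4 tumor cells for 1 (Cdc6) and that of KLG4 MDMs for 1 (Ccne2). Of all 11914 genes listed in the 3 tables, 24.0% had their highest mean in KLG4 TRMs. These levels are not rescaled for mitochondrial reads. After the rescaling described below 27 of 40 tested members were positive in TRMs, so the place of KLG4 above KL depends on the scaling. For 15 of the 36, all 4 TRM libraries lay above the other 8, as did 9.08% of all genes. The same count was 1 in tumor cells (Mcm6), beside 18.3% of all genes, and 0 in MDMs, beside 12.3%. The 36 genes summed to 357 and 398 RPKM in KLG4 TRMs and to 229 and 249 RPKM in KL TRMs. In tumor cells the same sum was 155 and 158 RPKM for KLG4 and 153 and 138 in KL, and in MDMs it was 101 and 97.9 RPKM in KLG4 and 96.2 and 193 in KL. The tables were normalized separately, so these levels are set side by side without a test.

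Mki67, which encodes the Ki-67 coat of mitotic chromosomes, read 55.6 and 62.0 RPKM in KLG4 TRMs and 28.5 and 26.5 RPKM in KL TRMs. In tumor cells it read 17.1 and 16.3 RPKM for KLG4 and 5.74 and 7.07 RPKM for KL. Its MDM values were 11.6 and 13.9 for KLG4 and 15.8 and 15.6 RPKM for KL. The order of the group means therefore ran from KLG4 TRMs through KL TRMs, KLG4 tumor cells, KL MDMs and KLG4 MDMs to KL tumor cells, and the closest neighbours were KLG4 tumor cells and KL MDMs (16.7 ± 0.615 and 15.7 ± 0.121 RPKM, SD, n = 2 each). Top2a, the topoisomerase that untangles sister chromosomes, was at 18.1 and 19.0 RPKM in KLG4 TRMs, 8.77 and 9.54 in KL TRMs, 3.67 and 3.54 in KLG4 tumor cells and 3.13 and 2.60 in KL tumor cells. Pcna was unlike the rest in its evenness, at 30.1 to 49.4 RPKM over all 12 libraries, with overlapping ranges in the 3 populations.

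**Figure D1:**
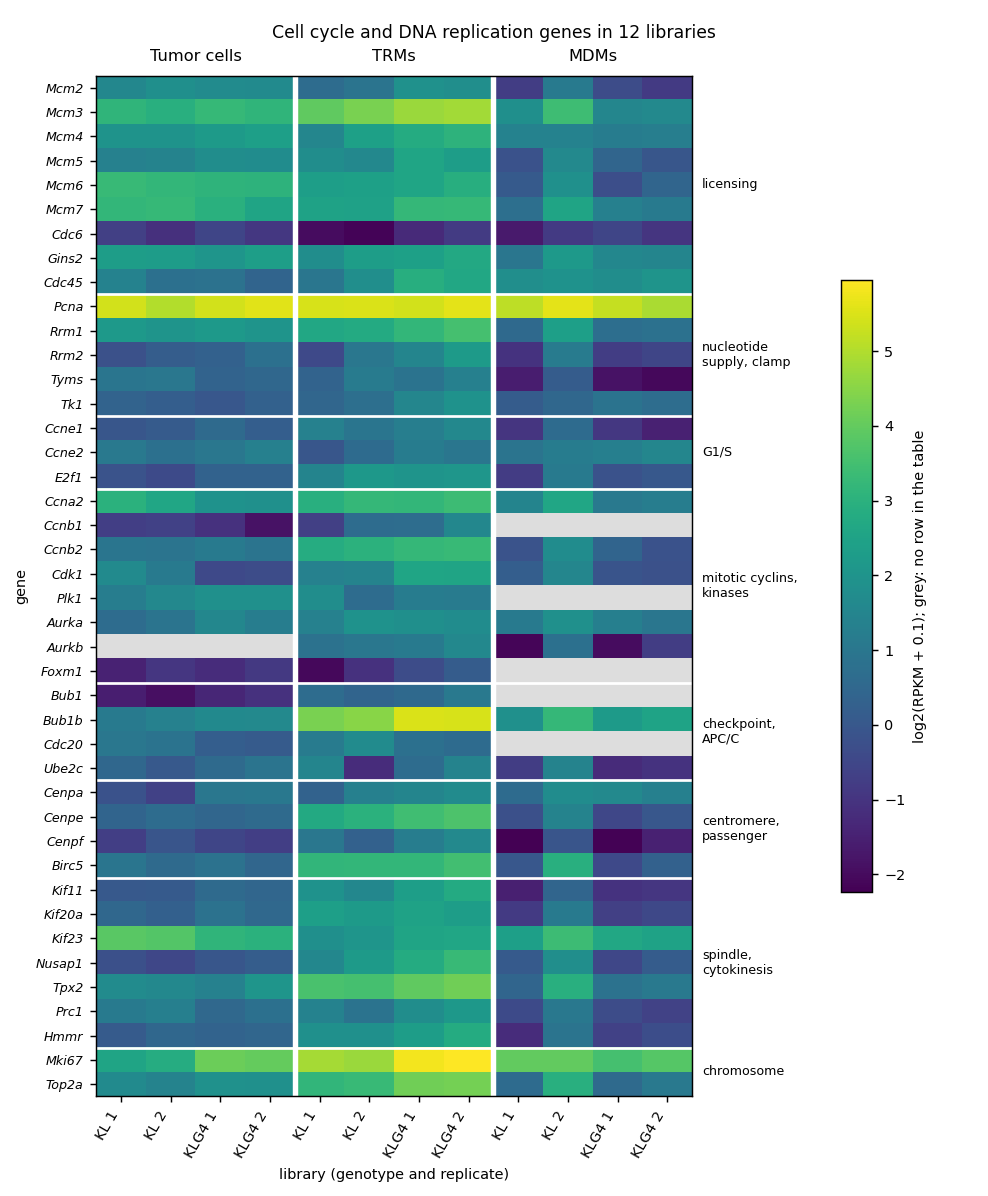
Level of each of 42 genes (rows, grouped by role) in 12 libraries (columns), coloured by log2(RPKM + 0.1), with grey where a table had no row. TRMs carry the highest values in most rows, Pcna is even across libraries, and in MDMs KL replicate 2 is brighter than its 3 neighbours in most rows.

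Within a library, the balance of replication and mitosis genes differed by population. The mean log2(RPKM + 0.1) of the 17 licensing, nucleotide supply and G1/S genes exceeded that of the 19 mitosis genes by 0.51 to 0.55 in the 4 tumor cell libraries. In the 4 TRM libraries the sign was the opposite, with mitosis genes above replication genes, and the difference ran from -0.45 to -0.86. The KLG4 and KL means differed by less than the larger of their SDs: -0.60 ± 0.02 and -0.65 ± 0.29 in TRMs, and 0.51 ± 0.00072 and 0.53 ± 0.03 in tumor cells (SD, n = 2 each). In MDMs the difference was 0.31 and 0.07 in the KLG4 libraries, 0.11 in KL replicate 1 and -0.29 in KL replicate 2. Levels of different genes are compared here per kilobase.

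**Figure D2:**
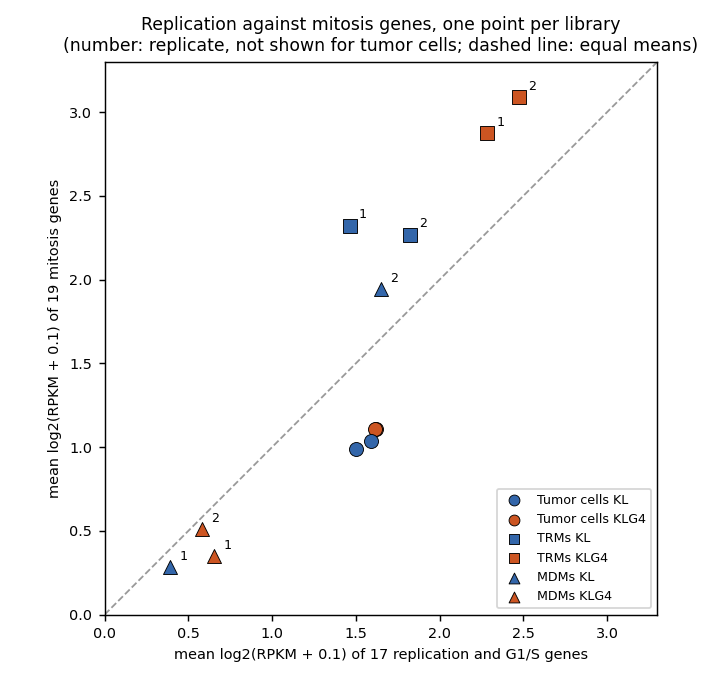
Mean log2(RPKM + 0.1) of 19 mitosis genes (vertical axis) against that of 17 replication and G1/S genes (horizontal axis), with 1 point per library, shape for population, colour for genotype and a dashed line at equality. TRM libraries lie above the line and tumor cell libraries below it, and MDM KL replicate 2 lies above the line and far from the other 3 MDM libraries.

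Partners in 1 complex were far from equal. Bub1b, which encodes the checkpoint kinase-like protein BUBR1, was at 19.5 to 44.6 RPKM in TRMs, against 1.23 to 1.99 RPKM for Bub1, its paralog in the same checkpoint. Of the chromosomal passenger complex, which corrects kinetochore attachments, the scaffold Incenp was in TRMs at 50.1 to 116 RPKM, Birc5 (survivin) at 8.76 to 10.9 RPKM and the kinase Aurkb at 1.70 to 2.89 RPKM. Tumor cells showed the same order, with Bub1b at 2.06 to 3.06 and Bub1 at 0.167 to 0.375 RPKM, and Incenp at 17.7 to 27.1 and Birc5 at 1.29 to 1.83 RPKM. The helicase ring was uneven in TRMs as well, with Mcm3 at 15.3 to 28.2 RPKM and Mcm2 at 1.495 to 3.67 RPKM. The gene length used counts all annotated exonic bases, 3752 for Mcm3 and 6956 for Mcm2. It can lower a gene whose expressed transcript is shorter, so part of such unevenness may come from the length. In tumor cells the subunits ran from 2.48 RPKM (Mcm5) to 9.70 RPKM (Mcm6). Bub1, Incenp, Aurkb, Mcm2 and Mcm5 were singled out after their values were seen.

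The promoters of the members were searched in windows of 250 bases before to 50 bases after the start given by RefSeq (build GRCm38.p6), which covered 34 of the 42 genes. A CHR match (the letters TTTGAA, else the letters TTCGAA, on either strand) was present in 16 of 20 mitosis genes (80%) and in 3 of 14 replication and G1/S genes (21.4%), against 21.7% of 27025 genes with a window. CCAAT on either strand was found in 18 of 20 mitosis genes and 9 of 14 replication and G1/S genes, against 41.1% of all genes. All 16 mitosis genes with a CHR match also held CCAAT, a pair present in 8.61% of all genes. An E2F core (the letters TTTCCCG, else the letters TTTGGCG, else the letters TTTCGCG, else the letters TTTGCCG, on either strand, with overlaps counted) was found in 5 of 14 replication and G1/S genes and 3 of 20 mitosis genes, against 7.65% of all genes. These shares describe letters in a window and not bound sites.

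The 250 bases before the start are shown, 5′ to 3′ on the strand of the gene, for 5 genes chosen after their values were seen: Mki67, which passed the test in both tumor cells and TRMs, Bub1b, which passed in TRMs, Cdk1 and Cdc20, which passed as lower in tumor cells and held CHR matches before the start, and Mcm6 as a licensing gene with several E2F cores. The TRM calls of Mki67 and Bub1b and the tumor cell call of Cdc20 did not hold under all alternatives. Capitals mark CHR and CCAAT matches on either strand in the first 4 (ATTGG is the reverse form of CCAAT) and E2F cores in Mcm6.
Mki67, chr7:135716380-135716629, minus strand: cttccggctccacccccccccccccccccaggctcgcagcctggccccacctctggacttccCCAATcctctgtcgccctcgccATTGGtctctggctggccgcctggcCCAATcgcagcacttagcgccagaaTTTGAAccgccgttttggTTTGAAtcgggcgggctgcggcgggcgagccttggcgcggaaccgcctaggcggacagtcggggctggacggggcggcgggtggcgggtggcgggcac
Bub1b, chr2:118597961-118598210, plus strand: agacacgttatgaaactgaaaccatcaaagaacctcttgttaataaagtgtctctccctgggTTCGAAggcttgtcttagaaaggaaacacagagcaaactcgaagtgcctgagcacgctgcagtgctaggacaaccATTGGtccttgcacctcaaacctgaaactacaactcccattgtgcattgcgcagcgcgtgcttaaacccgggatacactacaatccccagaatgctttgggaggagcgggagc
Cdk1, chr10:69352913-69353162, minus strand: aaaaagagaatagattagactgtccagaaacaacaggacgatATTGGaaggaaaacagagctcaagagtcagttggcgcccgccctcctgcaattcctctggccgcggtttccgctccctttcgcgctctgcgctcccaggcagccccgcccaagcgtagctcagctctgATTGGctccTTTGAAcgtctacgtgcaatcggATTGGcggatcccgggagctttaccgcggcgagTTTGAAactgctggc
Cdc20, chr4:118437344-118437593, minus strand: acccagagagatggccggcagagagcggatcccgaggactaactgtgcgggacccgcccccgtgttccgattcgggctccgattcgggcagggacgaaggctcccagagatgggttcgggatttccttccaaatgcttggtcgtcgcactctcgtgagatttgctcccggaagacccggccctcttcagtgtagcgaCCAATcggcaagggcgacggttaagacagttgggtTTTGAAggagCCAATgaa
Mcm6, chr1:128359706-128359955, minus strand: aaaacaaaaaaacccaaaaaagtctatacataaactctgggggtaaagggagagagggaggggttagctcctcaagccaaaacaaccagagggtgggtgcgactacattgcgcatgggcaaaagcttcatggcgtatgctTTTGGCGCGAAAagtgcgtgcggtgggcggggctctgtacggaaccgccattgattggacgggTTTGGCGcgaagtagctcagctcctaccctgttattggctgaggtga
Mki67 and Cdk1 each held 2 CHR and 3 CCAAT matches in this stretch. They went in opposite directions in tumor cells (below zero for Cdk1, above it for Mki67) and in the same direction in TRMs. A relation between matches and direction was not tested. Cdc20 held 1 CHR and 2 CCAAT matches and Bub1b 1 of each.

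In TRMs the question was whether cells from tumors with the Gpx4 deletion differed from those of KL tumors. Mki67 and Bub1b rose in KLG4 TRMs, each by about 2-fold, and 38 of 40 tested members had a positive log2 fold change (KLG4 minus KL on log2(RPKM + 0.1), limma). Those were 2 members higher, where 1.36% of 10990 tested genes were higher at an adjusted p under 0.05, and 0 members lower, where 0.437% were. For 29 members the KLG4 pair lay wholly above the KL pair, which held for 53.7% of all genes, and for 1 (Cdc20) it lay wholly below, which held for 8.95%. The members' median log2 fold change was 0.69, beside 0.38 for all genes, of which 78.4% were positive. Reads on mitochondrially encoded genes and on 7 nuclear copies made up 2.95% and 5.78% of the KLG4 libraries and 31.5% and 22.3% of the KL ones, which lowers every other RPKM value in KL. With the libraries rescaled to the other reads, the median of all genes was 0.00 and that of the members 0.31, 27 of 40 members were positive, and 0 members passed the test. The KLG4 pair then lay wholly above the KL pair for 16 of 40 members, beside 27.5% of all genes, and wholly below for 6, beside 28.0%. With limma-voom on the recovered reads 3 of 39 members passed (Mki67, Bub1b and Top2a), where 4.11% of all genes were higher.

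Mki67 had a log2 fold change of 1.09 (SE 0.17, adjusted p = 0.0475), a 2.13-fold difference. After that rescaling it was 0.70 (adjusted p = 0.128). Bub1b, on chromosome 2 at 118598211 to 118641591, gave 44.6 and 43.5 RPKM in KLG4 against 19.5 and 22.5 in KL. Its difference was 1.07 on the log2 scale (SE 0.17, adjusted p = 0.0498), or 0.68 after rescaling (adjusted p = 0.114). Neither gene's groups overlapped. Leaving out KL replicate 1 gave adjusted p-values of 0.0556 for Mki67 and 0.0652 for Bub1b, and leaving out KLG4 replicate 2 gave 0.0699 and 0.0612. Without KLG4 replicate 1 the value was 0.0885 for Bub1b. Without KL replicate 2, 13 of 40 members (32.5%) passed as higher, and so did 23.3% of all genes. The higher alveolar macrophage and monocyte-derived macrophage sums and the lower alveolar type 2 and neutrophil sums of KLG4 TRMs moved with these differences, and their part in them was not tested. Those sums were not rescaled, and the mitochondrial reads of KL lower its macrophage sums as well.

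Among licensing genes of TRMs, 8 of 8 tested members had a positive difference without overlap, beside the 53.7% of all genes, and 0 passed the test. After rescaling 6 of the 8 still did, beside 27.5% of all genes. Mcm3 had the highest level, at 26.5 and 28.2 RPKM in KLG4 against 15.3 and 19.8 in KL (log2 fold change 0.65, adjusted p = 0.114). Cdc45, part of the active helicase, had the largest difference, at 7.35 and 6.27 against 1.87 and 3.40 RPKM (log2 fold change 1.39, adjusted p = 0.0817). Cdc6, the helicase loader, read 0.126 to 0.472 RPKM and was not tested. In the nucleotide and clamp group 0 of 5 passed. Rrm2, the S-phase subunit of ribonucleotide reductase, had the largest difference of all members, with 2.72 and 4.60 RPKM against 0.650 and 1.90 (log2 fold change 1.58, SE 0.56, adjusted p = 0.143). The KL values rest on 18 and 48 reads. Pcna did not differ beyond its spread (41.95 and 49.4 against 43.8 and 44.9 RPKM, adjusted p = 0.903), and its log2 fold change of 0.04 turned to -0.35 after rescaling. Of the G1/S genes, E2f1 overlapped between genotypes (3.94 and 4.07 against 2.66 and 4.27 RPKM). Ccne2, a cyclin E, read 2.20 and 1.85 against 0.858 and 1.44 RPKM (adjusted p = 0.248).

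In the mitotic cyclin and kinase group of TRMs, 6 of 7 tested members were positive, beside 78.4% of all genes, and 0 passed. The seventh, Plk1, overlapped between genotypes (2.22 and 2.17 against 3.37 and 1.49 RPKM) and is named after its values were seen. After rescaling 1 of the 7 lay wholly above KL, beside 27.5% of all genes, and 2 lay wholly below, beside 28.0%. Cdk1 read 5.85 and 5.78 RPKM in KLG4 against 2.50 and 2.60 in KL. The groups were tight and apart, with a log2 fold change of 1.16 (SE 0.24, adjusted p = 0.0638), or 0.78 after rescaling. Its cyclin partner Ccna2 had 8.98 and 10.3 against 7.52 and 9.14 RPKM, an overlap, and its difference of 0.21 turned to -0.18 after rescaling. Ccna2 shares 12.5% of its exonic bases with Exosc9 on the other strand, and reads there cannot be assigned because the libraries did not keep strand. Cenpe, a kinesin of the kinetochore, was at 10.8 and 12.6 against 6.59 and 7.89 RPKM (adjusted p = 0.119). Cenpf, another kinetochore protein, was at 2.27 and 2.998 against 1.93 and 1.15 RPKM (adjusted p = 0.243). All 4 centromere and passenger genes and 6 of 7 spindle and cytokinesis genes lay wholly above KL, beside 53.7% of all genes. After rescaling these counts were 1 of 4 and 2 of 7, beside 27.5% of all genes, and 1 member of each group then lay wholly below, beside 28.0%. Tpx2, which activates Aurora A on the spindle, read 15.4 and 18.1 against 11.98 and 11.6 RPKM (adjusted p = 0.165), and the spindle protein Nusap1 6.92 and 9.68 against 2.81 and 4.55 RPKM (adjusted p = 0.0971). Top2a had a log2 fold change of 1.0103 (SE 0.19, adjusted p = 0.0568). Cdc20, the activator of the anaphase-promoting complex, was the 1 member whose KLG4 pair lay below KL, at 1.64 and 1.46 RPKM in KLG4 against 2.14 and 3.16 in KL (adjusted p = 0.231).

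In tumor cells, the cells in which Gpx4 was targeted, Mki67 and Cenpa rose and Cdk1, Ccna2, Cdc20 and Kif23 fell. Of 35 tested members 2 were higher, where 20.6% of 13770 tested genes were, and 4 were lower, where 19.6% were, which are smaller shares of the members than of all genes. For 15 members the KLG4 pair lay wholly above the KL pair, as did 32.5% of all genes, and for 8 wholly below, as did 42.2%. The median log2 fold change of the members was 0.13, beside -0.09 for all genes, and it turned to -0.15 under quantile normalization, where 14 of 35 members were positive instead of 23. The 2 KLG4 libraries of tumor cells were closer to each other than any other pair, with a chi-square of 3.28 per gene between their reads against 60.4 for the KL pair. Whether the KLG4 pair holds the full spread between animals was not tested. If it does not, the p-values in tumor cells are too small.

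Mki67, on chromosome 7 at 135689784 to 135716361, had a log2 fold change of 1.38 (SE 0.16, adjusted p = 0.00212), which was 2.60-fold, with the groups well apart. It passed under every alternative that was run, with log2 fold changes of 1.23 without KL replicate 1 to 1.52 without KL replicate 2. Cenpa, on chromosome 5 at 30666777 to 30674830, encodes the histone H3 variant that marks centromeres. It read 1.92 and 1.96 RPKM in KLG4 against 0.792 and 0.542 in KL, and differed by 1.43 on the log2 scale (SE 0.25, adjusted p = 0.00908). It entered the test through its KLG4 values alone, so the filter admitted it on the side on which it was called. With no filter its adjusted p was 0.00808. Without either KLG4 library too few of the remaining libraries reached 1 RPKM for it to be tested.

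Cdk1, on chromosome 10 at 69335146 to 69352938, read 0.642 and 0.693 RPKM in KLG4 tumor cells against 3.11 and 2.04 in KL, and was 3.42-fold lower (log2 fold change -1.77, SE 0.27, adjusted p = 0.00545). It likewise entered the test through its KL values alone, and with no filter its adjusted p was 0.00463. Its partner Ccna2, on chromosome 3 at 36564865 to 36572150, read 3.78 and 3.60 RPKM in KLG4 against 7.88 and 6.02 in KL (log2 fold change -0.88, SE 0.19, adjusted p = 0.0170). Both genes of this kinase pair were thus lower in tumor cells where Mki67 was higher. Cdc20, on chromosome 4 at 118432901 to 118437352, was at 1.06 and 0.975 RPKM in KLG4 against 1.92 and 1.75 RPKM in KL (log2 fold change -0.79, SE 0.21, adjusted p = 0.0311). That call was lost with the reads rescaled outside mitochondrial genes and their nuclear copies (adjusted p = 0.0529) and with limma-voom (0.0899). Kif23, a kinesin of the cytokinetic bridge on chromosome 9 at 61915905 to 61946774, was at 8.64 and 7.91 RPKM against 14.5 and 13.5 RPKM (log2 fold change -0.75, SE 0.14, adjusted p = 0.00997). Without KLG4 replicate 1 the adjusted p was 0.0843 for Ccna2, 0.0792 for Kif23 and 0.161 for Cdc20, and without KLG4 replicate 2 it was 0.107, 0.130 and 0.223. Without KL replicate 1 it was 0.0562 for Cdc20. Cdk1 could not be tested without either KL library, since too few of the remaining 3 libraries reached 1 RPKM. Mitochondrially encoded genes and the nuclear copies took 14.8% and 14.7% of the reads in KLG4 tumor cells against 7.38% and 8.26% in KL, which lowers every other RPKM value in KLG4. This share, the lower epithelial sum and the higher sums of leukocyte, neutrophil, fibroblast, T cell and macrophage genes in KLG4 given above moved with both the rises and the falls, and their part in them was not tested.

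Other members of the same roles did not pass in tumor cells in the main fit. Among alternatives that kept all 4 libraries, E2f1 passed as higher with no trend. Tyms passed as lower with no trend and with quantile normalization, and Prc1 as lower with quantile normalization and with limma-voom. Licensing genes were split, with 4 of 8 tested members positive, and Mcm6, the highest, read 8.42 and 8.198 RPKM in KLG4 against 9.70 and 9.03 in KL (adjusted p = 0.361). Cdc45 had the largest difference of that group (1.69 and 1.23 against 2.53 and 1.63 RPKM, adjusted p = 0.254). Pcna was at 42.4 and 48.1 RPKM against 42.2 and 32.5 (adjusted p = 0.224), and Rrm2 at 1.15 and 1.63 against 0.769 and 1.04 RPKM (adjusted p = 0.167). All 3 G1/S genes had positive differences, beside 44.1% of all genes, but Ccne1 and E2f1 had entered the test through their KLG4 values alone. E2f1 was at 1.17 and 1.16 RPKM against 0.797 and 0.660 (adjusted p = 0.0867), and Ccne2 at 1.90 and 2.43 against 1.98 and 1.64 RPKM, with overlap. Bub1b read 3.06 and 2.98 against 2.06 and 2.49 RPKM (adjusted p = 0.151). Birc5 overlapped between genotypes, at 1.70 and 1.29 against 1.83 and 1.41 RPKM, and Top2a differed by 0.33 on the log2 scale (SE 0.18, adjusted p = 0.211). The 6 members listed but under the filter of 1 RPKM in 2 libraries were Cdc6, Ccnb1, Foxm1, Bub1, Cenpf and Nusap1, and none of their 24 values exceeded 1.04 RPKM.

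**Figure D3:**
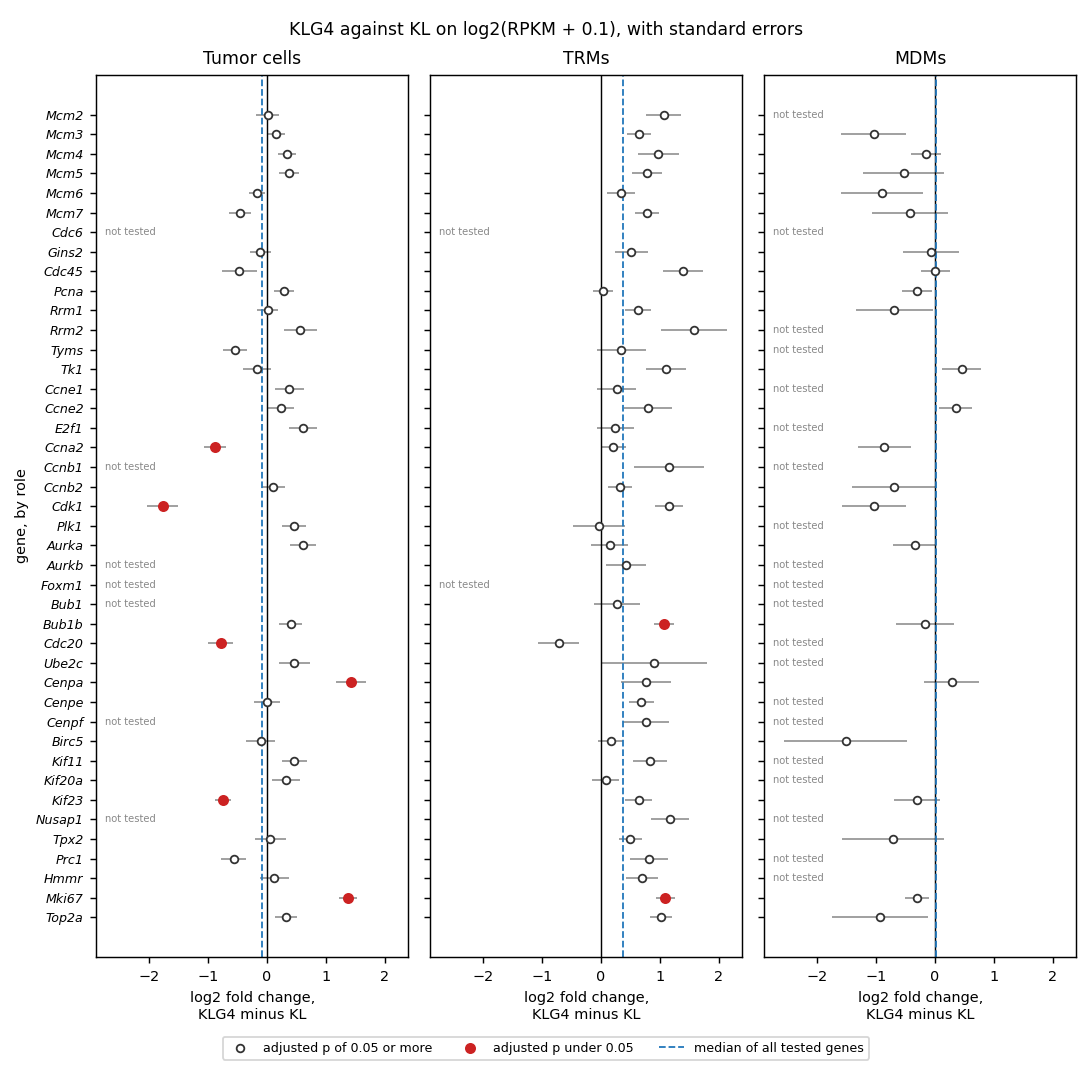
Log2 fold change of each gene, KLG4 minus KL on log2(RPKM + 0.1), in tumor cells, TRMs and MDMs, with standard errors, red where the adjusted p was under 0.05 and a dashed line at the median of all tested genes. In TRMs 38 of 40 points lie above 0, around a background of 0.38, in tumor cells red points lie on both sides, and in MDMs standard errors are wide and no point is red.

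In MDMs, 22 of 37 listed members passed the filter and 0 were called by limma, where 0% of 10475 tested genes were called higher and 0% lower. At an unadjusted p under 0.05 there were 0 members and 706 genes. For 5 members the KLG4 pair lay wholly below the KL pair, as did 19.1% of all genes, and for 2 wholly above, as did 25.4%. The median log2 fold change was -0.39, beside 0.02 for all genes, with 4 of 22 positive, beside 52.1% of all genes. That sign turned when KL replicate 2 was left out. Without it the median was 0.21, beside 0.06 for all genes, with 12 of 17 tested members positive, beside 58.0% of all genes. Members that passed the filter only with that library were then not tested, so the set of genes changed too. Without KL replicate 1 the median was -0.84, and 11 of 21 members passed as lower, where 13.5% of all genes did.

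KL replicate 2 held the highest value of the 4 MDM libraries for 17 of the 22 tested members (77.3%), beside 41.5% of all tested genes. Mcm5, Mcm6, Ccnb2, Birc5 and Cdk1, all among these 17, passed the filter only with KL replicate 2 counted, so the filter favoured this count. For 14 of the 22 (63.6%) it exceeded the highest of the other 3 libraries by more than 1.5 times, beside 17.2% of all tested genes. Over all 37 listed members, 15 of them under the filter, these counts were 31 and 28, and the shares over all listed genes were not taken. Birc5 read 7.59 RPKM there and 0.643 to 1.14 in the other 3 libraries, a ratio of 6.65 to the highest of them. Top2a was at 7.46 RPKM against 1.40 to 2.01, Tpx2 at 7.54 against 1.24 to 2.02 and Rrm1, the large subunit of ribonucleotide reductase, at 5.11 against 1.37 to 1.68 RPKM. Mcm3 read 10.4 RPKM against 2.78 to 3.47, Ccna2 5.95 against 2.00 to 2.64, and Cdk1 2.80 against 0.758 to 1.05 RPKM. Mki67 did not follow them, at 15.6 RPKM in KL replicate 2 and 15.8 in KL replicate 1, nor did Mcm4, Cdc45, Ccne2, Cdc6 and Tk1, which had a higher value in another library. Bub1b and Kif23 were at 9.15 and 10.3 RPKM in that library against 3.55 to 5.58 and 5.11 to 6.26 in the others. The library had the lowest neutrophil sum of the 4 (10668 against 17798 to 23390 RPKM), the highest alveolar macrophage sum (2337 against 1262 to 1542) and the highest epithelial sum (262 against 18.5 to 74.2), with C1qa, a macrophage complement gene, at 92.7 against 16.0 to 24.4 RPKM. It was also the shallowest, at 10.4 M reads, and had the highest share of reads on mitochondrially encoded genes and the nuclear copies (7.31% against 0.921% to 2.75%). The part of these in its member levels was not tested.

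**Figure D4:**
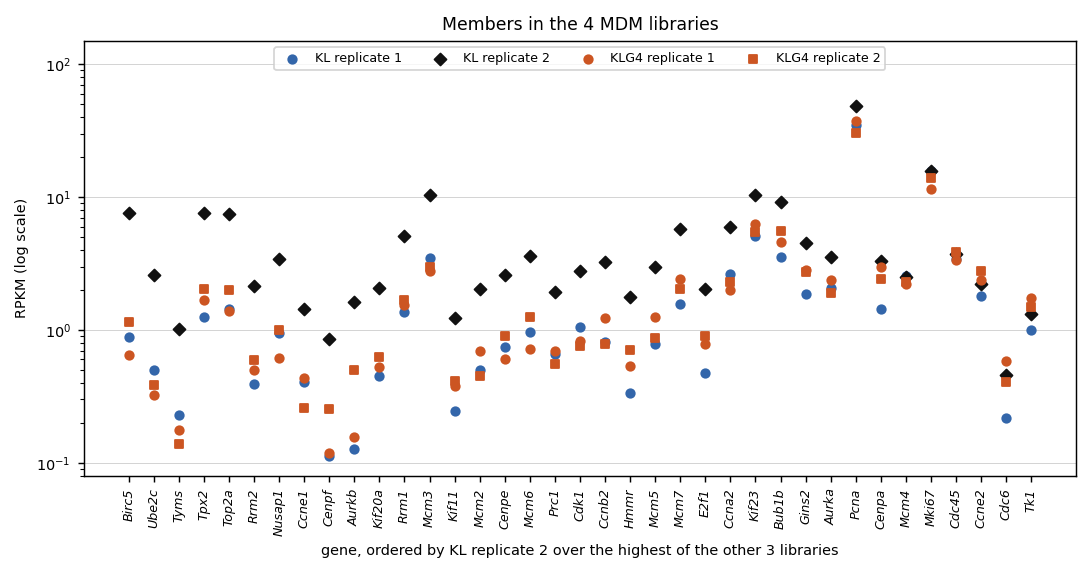
RPKM (log axis) of 37 genes in the 4 MDM libraries, ordered by the ratio of KL replicate 2 (black diamonds) to the highest of the other 3. KL replicate 2 is more than 1.5 times above the others for 28 genes, from Birc5 down, while Mki67, Mcm4, Cdc45, Ccne2, Cdc6 and Tk1 at the right are not highest in it.

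Set side by side, the members' genotype differences were not alike in the 3 populations, although no test across the separately normalized tables was run. Mki67 had log2 fold changes of 1.38 in tumor cells, 1.09 in TRMs and -0.31 in MDMs (adjusted p = 0.691). Cdk1 had -1.77, 1.16 and -1.03 (adjusted p = 0.679 in MDMs, where it entered the test through its KL values alone), and Mcm3 had 0.16, 0.65 and -1.04. Birc5 had -0.11, 0.16 and -1.52, with a standard error of 1.04 in MDMs.

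Other genes of the pathway, 96 in 6 lists of origin, fork, G1 kinase, inhibitor, E2F and further mitotic genes, were counted in the same fits. In tumor cells 8 of 73 tested were higher and 7 lower, smaller shares than the 20.6% and 19.6% of all genes. Their largest differences per list were in Ccnf, a cyclin F-box protein, at 4.96 and 5.13 RPKM in KLG4 against 0.679 and 1.25 in KL (log2 fold change 2.33, adjusted p = 0.00315), in Cdkn2a, the locus of the p16 and Arf inhibitors, at 0.677 and 0.965 against 4.08 and 2.26 RPKM (-1.79, adjusted p = 0.0122, or 0.0105 with no filter, which it passed through its KL values alone), and in Ccnd1, cyclin D1, at 23.9 and 26.5 against 44.2 and 58.2 RPKM (-1.01, adjusted p = 0.00759). Rpa2, which coats single-stranded DNA, rose (1.26, adjusted p = 0.00666), while Rpa3 of the same complex fell (-1.04, adjusted p = 0.00910) and Rpa1 did not pass (0.52, adjusted p = 0.0646), both named after their values were seen. Another gene that rose was Lin54, the DREAM and MuvB subunit that binds CHR elements (1.14, adjusted p = 0.00625). Gins1, a subunit of the same helicase complex as Gins2, fell (-0.81, adjusted p = 0.0156).

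In TRMs 1 of 81 tested pathway genes passed, Incenp, at 116 and 97.8 RPKM in KLG4 against 50.1 and 52.7 RPKM in KL (log2 fold change 1.05, adjusted p = 0.0475), where 1.36% of all genes were higher, and 63 of 81 were positive, beside 78.4% of all genes. These pathway values are not rescaled. With libraries rescaled outside mitochondrially encoded genes and nuclear copies, limma called 8 of 10990 genes higher, and pathway values under that scaling are not given here. The largest differences per list were Cdc7, the kinase that fires origins (2.56, adjusted p = 0.0766), Melk (1.76, adjusted p = 0.0904), E2f3 (1.52, adjusted p = 0.0809), Rpa3 (1.34, adjusted p = 0.412), Cdkn1c (-0.94, adjusted p = 0.250) and Cdk2 (0.85, adjusted p = 0.190). None of these 6 passed, and Cdc7 and E2f3 entered the test through their KLG4 values alone. In MDMs 0 of 52 passed, and the largest per list were Lin37 (1.66), Cdkn2a (-1.63), Ccnd1 (-1.58), Dut (-1.01), Ndc80 (-0.89) and Cdt1 (-0.75), each with an adjusted p of 0.679 or, for Ndc80, 0.714. Lin37 entered the test through its KLG4 values alone, and Ccnd1 and Dut through their KL values alone. KL replicate 2 held the highest value for Cdkn2a (7.07 RPKM against 0.720 to 1.38), Ccnd1 (4.54 against 0.603 to 1.22) and Ndc80 (5.34 against 1.08 to 1.34), as it did for most members. It was also highest for Dut (2.16 RPKM against 0.670 to 1.03) and Cdt1 (1.90 against 0.820 to 1.53), and lowest for Lin37 (0.278 against 0.466 to 1.52).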

How the data were processed

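RNA from FACS-sorted tumor cells, TRMs and MDMs was sequenced by the authors as poly(A) libraries without strand (paired-end). Per the labels, reads were processed with Trim Galore 0.6.4, HISAT2 2.0.5 and featureCounts 2.0.0, with the reads mapped to an Ensembl release of the mouse genome, as the study's methods state. That release is taken here to be on GRCm38, a build the methods do not name. The authors deposited RPKM values, in 1 table per population. Their own fold changes, p-values and test statistics in those tables were not used, 0 per-sample columns lacked a sample, and 5 of the 17 samples are left out here. A further allele shared by all groups is not reported here.

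Total reads were recovered as whole multiples of the smallest step (100% of values under 2000 reads lay within 0.05 of a whole number). Few recovered counts were odd (17.0% to 31.5% of those under 30), so both mates of a pair may have been counted and precision is below what these totals would give. Tests were run table by table with limma 3.58.1 (R 4.3.3, mean-variance trend, no covariate, two-sided) on log2(RPKM + 0.1), for genes that reached 1 RPKM in 2 or more of the 4 libraries, with Benjamini-Hochberg adjustment over all tested genes and an adjusted p under 0.05 as the call. The study's own count-based test needs counts, so limma on the log scale was used instead. The fit was checked on simulated independent values. That check cannot speak to composition shifts or to replicates that vary less than animals do. Fold changes on this scale understate low genes.

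The members, role groups, pathway and marker lists were chosen with earlier results of these data known. In each population Mki67 and Top2a were named, with the member of highest mean level and that of largest absolute difference in each of 8 role groups, and the gene of largest absolute difference in each of 6 pathway lists. Gene coordinates are from GENCODE on GRCm38. Reads on exons shared with another gene cannot be assigned without strand, which touches Gins2 (67.3% of exonic bases, with Gse1), Kif20a (29.3%), Ube2c (22.8%), Ccne2 (17.4%), Mcm7 (12.6%), Ccna2 (12.5%) and Prc1 (11.1%) most. Same-numbered libraries did not deviate together (correlations of 0.02, -0.06 and 0.05), so replicate numbers were not used as pairs. Alternatives covered pseudocounts of 1 and 0.01, filters, quantile and unweighted TMM scaling, rescaling to reads outside mitochondrially encoded genes, no trend, limma-voom on recovered reads, a replicate block and leaving out each library. Rescaling that also set aside 7 nuclear copies was added after seeing the data.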

Additional observations from a re-analysis of the deposited data

Results flagged for a closer look

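For 8 of the members, the 2 KLG4 libraries lay wholly above the 2 KL libraries in 1 population and wholly below them in another. These were 8 of 35 members tested in at least 2 tables (22.9%), beside 29.4% of 11169 genes tested in at least 2 tables, so the share of members was no higher than that of all genes. The difference between populations was not tested, since the tables were normalized separately, and the values below are log2 fold changes (KLG4 minus KL). Cdk1, the mitotic kinase, stood at -1.77 in tumor cells, 1.16 in TRMs and -1.03 in MDMs, where it entered the test through its KL values alone. Mki67 stood at 1.38 in tumor cells, 1.09 in TRMs and -0.31 in MDMs. Of the helicase subunits, Mcm3 had 0.65 in TRMs and -1.04 in MDMs. Mcm4 had 0.34 in tumor cells, 0.97 in TRMs and -0.16 in MDMs. Mcm6 had -0.17 in tumor cells and 0.34 in TRMs, and Mcm7 had -0.46 and 0.78. Of the genes of the spindle midzone and cytokinesis, Kif23 had -0.75 in tumor cells and 0.64 in TRMs, and Prc1, a microtubule bundling protein, had -0.57 and 0.82. The TRM values of Mki67 and the tumor cell values of Mki67, Cdk1 and Kif23 passed the test of their own table, and the other values of these 8 genes did not. With TRM libraries rescaled outside mitochondrially encoded genes and nuclear copies, 6 of the 8 still lay wholly above KL in TRMs and 2 did not, Mcm6 (-0.05) and Prc1 (0.44). In MDMs, Mcm3 was at -0.27 without KL replicate 2, and Cdk1 was then under the filter.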

How the results depend on the processing

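Replicates are 2 per group, so that leaving out a library leaves a lone sample that is assumed to vary like the others. In tumor cells the members' median log2 fold change was 0.075 with a pseudocount of 1, -0.17 over genes with a mean of at least 5 RPKM, -0.15 with quantile normalization, 0.19 outside mitochondrial genes, 0.23 outside these and their copies and 0.17 with limma-voom. The filter at a mean of 5 RPKM left 3284 genes called, with 1 of 7 tested members higher and 2 lower (14.3% and 28.6%, beside 18.7% and 28.1% of all genes). Leaving out each library gave 1843 to 7243 genes called, 1 to 4 members higher, 1 to 3 lower and medians of 0.061 to 0.19. In each of these 4 fits the shares of members called were below those of all genes, of which 7.72% to 29.3% were higher and 7.07% to 25.6% lower. Ccne2 turned to -0.043 with quantile normalization. Birc5 was at -0.46 there, and over the fits without 1 library it ranged from -0.29 without KLG4 replicate 1 to 0.076 without KLG4 replicate 2, and was 0.069 without KL replicate 1.

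In TRMs the number of genes called was 490 with a pseudocount of 1, 122 with 0.01, 120 with no filter, 557 over a mean of 5 RPKM, 56 with quantile normalization, 36 with TMM, 66 outside mitochondrial genes, 31 outside these and their copies, 12 with no trend and 767 with limma-voom. The members called numbered 0 with a pseudocount of 0.01, no filter, quantile normalization, TMM, both mitochondrial rescalings and no trend. The median was 0.54 with a pseudocount of 1, 0.30 with quantile normalization, 0.32 with TMM, 0.55 outside mitochondrial genes, 0.31 outside these and their copies and 0.30 with limma-voom. Leaving out each library gave 212 to 2631 genes called, 0 to 13 members higher and medians of 0.53 to 0.74. In the order quantile, TMM, outside mitochondrial genes and copies, and limma-voom, Ccna2 turned to -0.17, -0.16, -0.18 and -0.19, E2f1 to -0.17, -0.12, -0.14 and -0.15, and Pcna to -0.27, -0.34, -0.35 and -0.35. Pcna was also at -0.11 outside mitochondrial genes, and it ranged from -0.080 without KLG4 replicate 2 to 0.15 without KLG4 replicate 1. E2f1 ranged from -0.088 without KL replicate 1 to 0.57 without KL replicate 2.

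In MDMs leaving out each library gave 0 to 2592 genes called, 0 to 11 members lower and medians of -0.84 to 0.21. From the fit without KL replicate 1 to that without KL replicate 2, Bub1b went from -0.84 to 0.50, Kif23 from -0.80 to 0.19, Rrm1 from -1.61 to 0.21, Top2a from -2.09 to 0.21 and Tpx2 from -1.97 to 0.54. With a replicate block 5388, 470 and 0 genes were called in tumor cells, TRMs and MDMs, and the counts of members called stayed at 2 higher and 4 lower, 2 and 0, and 0 and 0. The replication minus mitosis difference with a pseudocount of 1 was 0.41 in KLG4 tumor cells, 0.43 in KL tumor cells, -0.48 in KLG4 TRMs and -0.46 in KL TRMs, so the order of the TRM genotypes turned. Outside mitochondrial genes the summed level was 172 RPKM in KLG4 tumor cells and 269 in KL TRMs. The cause of these changes was not tested. Depth limits members with few reads, such as Rrm2 in KL TRMs.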
